A study of Mus musculus with 4 samples.

Results

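The 34 genes described here encode the core machinery of macroautophagy, and each was taken by its symbol from a table of 54532 genes; all 34 were found. RNA was sequenced in bulk from thymic epithelial cells of C57BL/6 mice, in 4 libraries with 1 library per group. The groups were medullary cells (mTEC, sorted as Ly51− UEA1+) and cortical cells (cTEC, sorted as Ly51+ UEA1−), each from mice with an SCD1 knockout and from their littermates, which the labels call WT. SCD1 is a stearoyl-CoA desaturase, an enzyme of the endoplasmic reticulum that makes monounsaturated from saturated fatty acids. Of the deleted part of Scd1, the tissues that lack it, the age of the mice and the number of mice behind each library, nothing is stated in the sources used here. With no replicates, no difference below has a replicate check and no p-value was computed. The intervals are 95% intervals for counting error only, and every comparison is of these libraries.

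In macroautophagy a membrane sac, the phagophore, grows around cytoplasm, closes to an autophagosome and fuses with a lysosome. The ULK kinase complex starts the process, the class III PI3-kinase complex with Beclin 1 marks the membrane, ATG9 and ATG2 proteins supply it with lipid, and 2 ubiquitin-like conjugation systems attach ATG8 proteins (LC3 and GABARAP) to it. Thymic epithelial cells are known for high constitutive autophagy, which brings their own cytoplasmic proteins to the compartments where MHC class II molecules are loaded for the selection of T cells.

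The transcription factor TFEB and its relatives are known to bind E-box sequences at genes of the autophagy and lysosome pathway. Upstream sequences of 5 genes are shown: Lamp1 because its window carries the E-box CACGTG, here in capitals, and the other 4 because their transcripts were among those that differed most between the populations. They come from RefSeq, build GRCm38.p6, are written 5′ to 3′ in the direction of the gene, and lie before the RefSeq start site. Bases inside the gene span of the deposited table were left out, which shortens the windows of Map1lc3b and Gabarapl1. For Atg16l2 too few bases remained for its window to be shown.
Lamp1 chr8:13158911-13159160, plus strand, GRCm38.p6: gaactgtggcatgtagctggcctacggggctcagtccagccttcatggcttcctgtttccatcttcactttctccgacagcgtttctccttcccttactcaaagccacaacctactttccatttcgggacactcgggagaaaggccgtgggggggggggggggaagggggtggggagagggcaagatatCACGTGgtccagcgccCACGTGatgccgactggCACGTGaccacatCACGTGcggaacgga
Lamp2 chrX:38456461-38456710, minus strand, GRCm38.p6: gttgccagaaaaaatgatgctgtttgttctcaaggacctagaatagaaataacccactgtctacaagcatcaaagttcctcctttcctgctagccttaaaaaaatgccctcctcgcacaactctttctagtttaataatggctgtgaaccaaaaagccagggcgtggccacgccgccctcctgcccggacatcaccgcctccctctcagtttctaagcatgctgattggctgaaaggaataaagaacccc
Map1lc3b chr8:121590188-121590360, plus strand, GRCm38.p6: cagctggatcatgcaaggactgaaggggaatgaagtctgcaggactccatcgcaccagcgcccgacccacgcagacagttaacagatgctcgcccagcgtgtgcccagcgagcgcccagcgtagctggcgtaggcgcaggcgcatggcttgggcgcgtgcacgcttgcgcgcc
Gabarapl1 chr6:129532942-129533159, plus strand, GRCm38.p6: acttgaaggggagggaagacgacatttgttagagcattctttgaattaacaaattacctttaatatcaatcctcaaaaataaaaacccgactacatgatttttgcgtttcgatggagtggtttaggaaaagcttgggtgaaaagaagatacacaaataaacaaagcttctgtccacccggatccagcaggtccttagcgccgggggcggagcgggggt
Atg9b chr5:24392144-24392393, minus strand, GRCm38.p6: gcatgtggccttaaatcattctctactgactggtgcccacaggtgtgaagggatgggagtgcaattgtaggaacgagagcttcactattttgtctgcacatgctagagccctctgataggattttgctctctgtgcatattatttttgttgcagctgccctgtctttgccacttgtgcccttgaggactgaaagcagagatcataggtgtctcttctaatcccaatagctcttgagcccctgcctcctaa
The Lamp1 window held 4 E-boxes, starting 61, 45, 28 and 15 bases before the start site. The other 4 windows shown held none.

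Such windows of 250 bases were found for 29 of the 34 genes. Atg12, Atg16l1, Becn1, Map1lc3a and Rb1cc1 had no entry. Searched on both strands, CACGTG was present at 4 of the 29 genes, namely Atg3, Atg5, Atg7 and Lamp1, and in 6.02% of 32851 windows of all genes. Whole windows were searched, including bases inside the deposited gene spans. The Atg7 window starts at chr6:114670846 and lies inside the Atg7 span, chr6:114643097-114860614 on the plus strand. The longer form GTCACGTG, which contains the E-box, was present at Atg3, Atg7 and Lamp1 and in 1.85% of all windows. The palindrome known as the CLEAR element was at none of the 29 and in 0.24% of all windows. The antioxidant response form TGACNNNGC was present at Atg13, Clec16a and Ulk2, against 10.2% of all windows. The amino acid response form TGATGCAA and the FOXO form GTAAACA were at none of them, against 0.791% and 3.17% of all windows. These matches describe letters in the windows and not binding. The windows of the autophagy genes had a median GC content of 59.6% and 15 CpG, close to the 58.4% and 13 CpG of windows of all genes with at least 50 reads. Atg9b had the fewest CpG of the set, with 1 in its window, and 47.6% GC.

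The reads assigned to genes numbered between 15740383 and 18151725 per library. Scd1 was at 76.9 CPM (counts scaled for library size, with TMM factors) in control mTEC and 15.8 in knockout mTEC, and at 21.3 in control cTEC and 4.16 in knockout cTEC, so it was lower in both libraries labelled knockout. Of the 10 markers of cTEC such as Psmb11 and Prss16, 9 were at least 2-fold lower in mTEC in both genotypes, and of the 10 markers of mTEC such as Aire and Fezf2, 7 were at least 2-fold higher. No marker of any list was at 0 in any library. Markers of other cells moved with the groups as well. In the order control mTEC, knockout mTEC, control cTEC and knockout cTEC, the summed level of 12 thymocyte genes was 214, 261, 302 and 389 CPM. That of 9 macrophage and dendritic cell genes was 316, 353, 75.4 and 95.7 CPM, and that of 7 fibroblast and pericyte genes was 180.3, 185, 399.7 and 393 CPM. These 7 did not move together. In control 2 of them were at least 2-fold higher in mTEC and 2 at least 2-fold lower, with intervals that excluded equality. In knockout 3 were higher and 2 lower in the same way. The part of other cells in the results below was not tested, and fewer cells of a type and less RNA per cell cannot be told apart in bulk RNA.

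All 34 genes were detected in all 4 libraries, at levels that spanned more than 2 orders of magnitude. Levels of different genes are given per length, as reads per kilobase of the deposited gene length scaled to the same sum over all genes in each library. Sqstm1, which encodes the cargo receptor p62, had the highest per-length level in every library, at 647 and 697 in control and knockout mTEC and 813 and 854 in control and knockout cTEC. In both mTEC libraries it was followed by Map1lc3a, Gabarap and Lamp1, which lay between 334 and 378. In both cTEC libraries the order was Gabarap, Lamp1 and Map1lc3a, between 321 and 534. In control mTEC Map1lc3a, Gabarap and Lamp1 stood at 354, 353 and 349, an order that their counts do not separate. Map1lc3a and Gabarap encode ubiquitin-like proteins that coat the autophagosome, and Lamp1 encodes an abundant glycoprotein of the lysosomal membrane. The lowest level in control mTEC was that of Atg9b, at 5.77, just under Atg16l2 at 6.33 and Tfeb at 7.56. In cTEC Atg9b was lowest by a wider gap, at 1.14 in control and 1.1 in knockout, with Tfeb next at 8.09 and 8.08. Atg12 stood between 53.9 and 59.8 on a deposited length of 2492 bases, whereas its exons span 7711 bases in GENCODE release 21, so its place in the order depends on the length used. The deposited lengths of the other 33 genes matched the union of exons in that annotation. Their order depends on the use of length as well. By CPM, Sqstm1 was followed in control mTEC by Lamp2 at 351.5, Lamp1 at 326.6 and Map1lc3b at 301.8.

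**Figure D1:**
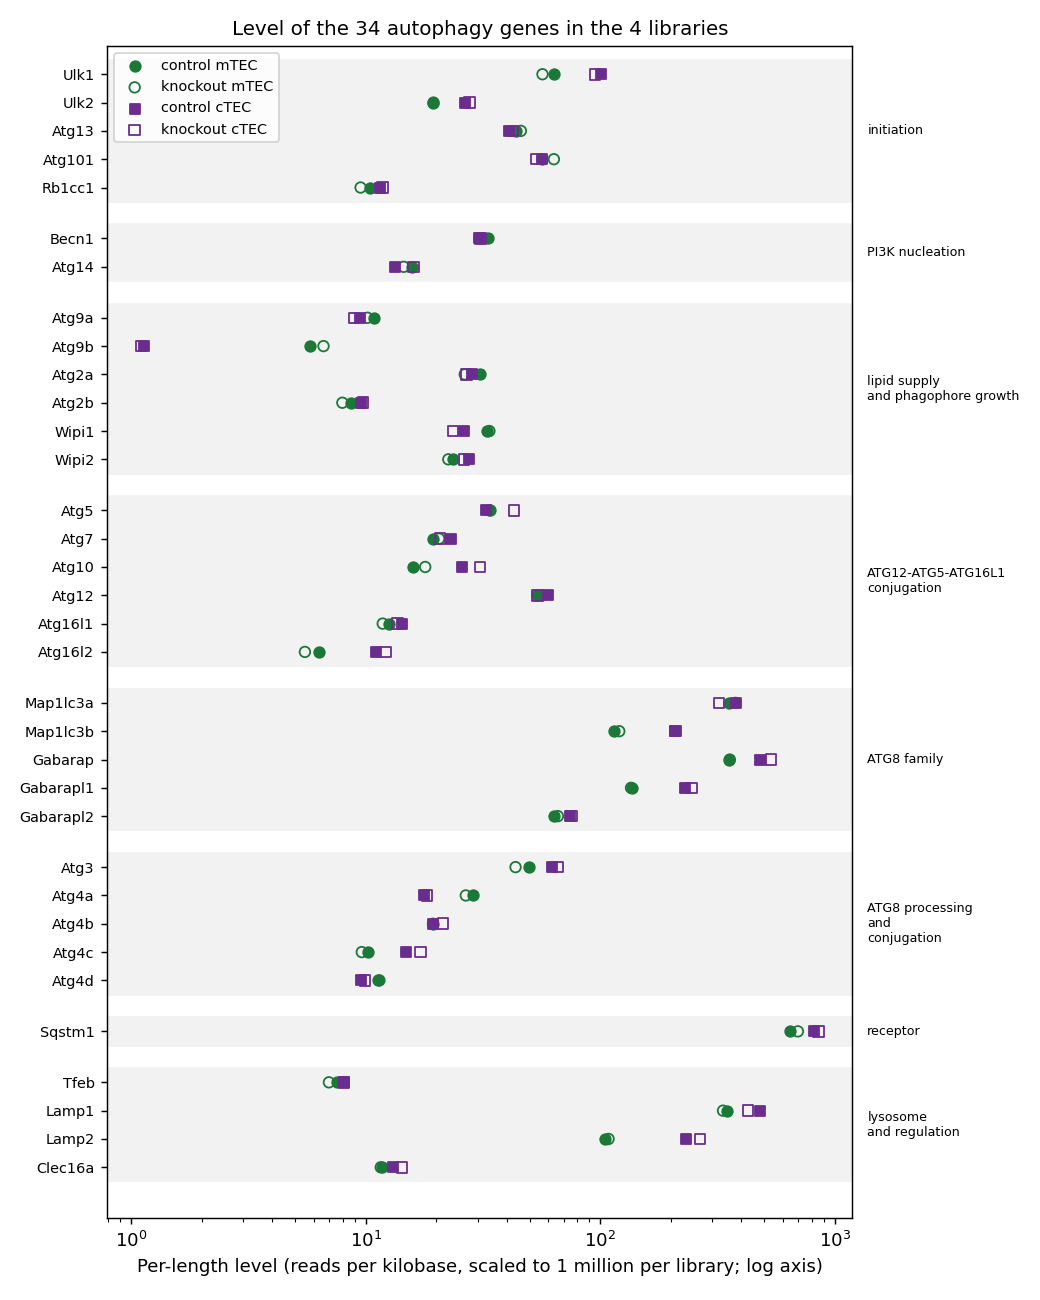
Per-length level of each autophagy gene (log axis) in the 4 libraries, 1 symbol per library, with genes grouped by role. Sqstm1 lies farthest right in all 4 libraries, and the cTEC symbols of Atg9b lie at 1.1 and 1.14, left of every other symbol.

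Loss of SCD1 went with small differences at these genes in mTEC. None of the 34 genes was 2-fold or even 1.5-fold different between knockout and control mTEC, against 3.61% of all genes past 1.5-fold. The size rule used here for a call, at least 50 reads in the pair, a 2-fold difference and an interval that excludes equality, was passed by 0 of the 34, against 0.935% of 16466 genes. Among genes with at least 200 reads that share was 0.153%. All 34 had at least 50 reads in each of the 4 comparisons, the fewest being 51 for Atg9b in cTEC. The interval alone excluded equality for 5 genes that were higher in the knockout library (Sqstm1, Map1lc3b, Map1lc3a, Lamp2 and Atg101) and 3 that were lower (Ulk1, Atg2a and Atg3). These are 14.7% and 8.82% of the set, against 11.6% and 10.2% of all genes, or 23.5% against 21.8% in either direction, so the set was near the background. The median log2 ratio was 0.03, against 0.006 over all genes.

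Among the higher genes in knockout mTEC, Sqstm1 was at 760.3 CPM in control and 842 CPM in knockout, a log2 ratio of 0.15 (0.11 to 0.18). Map1lc3b, the gene of LC3B, was at 302 and 326 CPM, a log2 ratio of 0.11 (0.06 to 0.17). Map1lc3a, the gene of LC3A, was at 146 and 161 CPM, a log2 ratio of 0.13 (0.06 to 0.21). All 5 ATG8 genes had ratios above 0 in mTEC, from 0.03 to 0.13, as did 19 of the whole set of 34. The share of all genes above 0 was not counted. The intervals of both LC3 genes excluded equality, and those of Gabarap, Gabarapl1 and Gabarapl2 held it. The 3 genes that were lower in the knockout library belong to 3 different roles. Atg2a, which encodes a lipid transfer protein of the growing phagophore, was at 83.1 CPM in control and 73.3 in knockout, a log2 ratio of -0.18 (-0.29 to -0.07). Ulk1, the kinase that starts autophagy, was at 145 and 133 CPM, a log2 ratio of -0.13 (-0.21 to -0.05). Atg3, the E2-like enzyme that attaches ATG8 proteins to lipid, was at 54.7 and 49.5 CPM, a log2 ratio of -0.14 (-0.28 to -0.01). Atg101, a partner of Atg13 in the ULK complex, was at 31.6 and 36.5 CPM, a log2 ratio of 0.21 (0.04 to 0.37). Of the 6 genes of the ATG12, ATG5 and ATG16L1 conjugation system none had an interval that excluded equality in mTEC, and their ratios ran from -0.16 to 0.21. Several marker lists were higher in the knockout library as well by the interval: 7 of 11 measured thymocyte, 7 of 10 cTEC, 5 of 8 tuft cell and 3 of 4 measured endothelial markers. The sum of the cTEC list was 2858 CPM in control and 3412 in knockout, that of the tuft list 145 and 169 CPM, and that of the endothelial list 16 and 25 CPM. Their part in these small ratios was not tested.

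In cTEC none of the 34 genes was 1.5-fold different between knockout and control, against 4.67% of all genes, and 0 passed the size rule, against 1.20% of 14445 genes. Among genes with at least 200 reads the share past the size rule was 0.176%. The interval excluded equality for 8 genes that were higher in the knockout library (Atg5, Lamp2, Gabarap, Sqstm1, Gabarapl1, Atg14, Atg4b and Atg10) and 3 that were lower (Map1lc3a, Lamp1 and Atg7). These are 23.5% and 8.82% of the set, against 16.3% and 14.5% of all genes, and in either direction 32.4% against 30.8%. The median log2 ratio was 0.05, against 0.01 over all genes.

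Atg5 showed the largest ratio of the set in cTEC. It encodes the protein to which ATG12 is joined, and lies at chr10:44268358-44364291 on the plus strand of mm10. It was at 26.8 CPM in control cTEC (24.3 to 29.6) and 35.7 in knockout cTEC (32.9 to 38.6), while both mTEC libraries were at 27.9 and 28.5 CPM. The knockout cTEC library thus stood above the other 3, with a log2 ratio of 0.41 (0.23 to 0.59) to its control. Lamp2, whose protein of the lysosomal membrane serves fusion and chaperone-mediated uptake, was at 775 CPM in control and 902 CPM in knockout cTEC, a log2 ratio of 0.22 (0.18 to 0.25). Lamp1 went the other way, at 449.7 and 404 CPM, a log2 ratio of -0.15 (-0.2 to -0.11). Gabarap was at 311 and 349 CPM, a log2 ratio of 0.17 (0.11 to 0.22). Within the same family, Map1lc3a was at 157 CPM in control and 134 CPM in knockout cTEC, a log2 ratio of -0.23 (-0.31 to -0.15). Atg7, the E1-like enzyme that activates both ATG12 and the ATG8 proteins, was at 56.4 and 51.1 CPM, a log2 ratio of -0.14 (-0.28 to -0.01). Atg14, which directs the PI3-kinase complex to autophagy, was at 20.2 and 24.5 CPM, a log2 ratio of 0.28 (0.07 to 0.5). Atg10, the E2-like enzyme for ATG12, was at 15.5 and 18.7 CPM, a log2 ratio of 0.27 (0.02 to 0.51). None of the 5 initiation genes and none of the 6 genes of lipid supply and phagophore growth had an interval that excluded equality in cTEC, although that of Ulk1 did so, as a lower value, when counts were scaled by total reads or by DESeq2 size factors. The sum of cTEC markers was 16491 CPM in control and 20758 in knockout cTEC, and 9 of its 10 genes were higher in the knockout library by the interval, as were 10 of 11 measured thymocyte markers. Most of the mTEC list went the other way, with 7 of 10 lower by the interval and a sum of 3571 CPM in control and 3261 in knockout. Ccl21a was the 1 gene of that list that was higher by the interval. It was at 120.6 CPM in control and 196.6 in knockout, a log2 ratio of 0.71 (0.62 to 0.79). The endothelial sum was 16.6 and 26.7 CPM, and 2 of 3 measured endothelial markers were higher by the interval. Tek, with too few reads to be measured, was lower, at 29 reads in control and 15 in knockout, a log2 ratio of -1.13 (-2.15 to -0.2). The part of these markers in the ratios above was not tested.

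**Figure D2:**
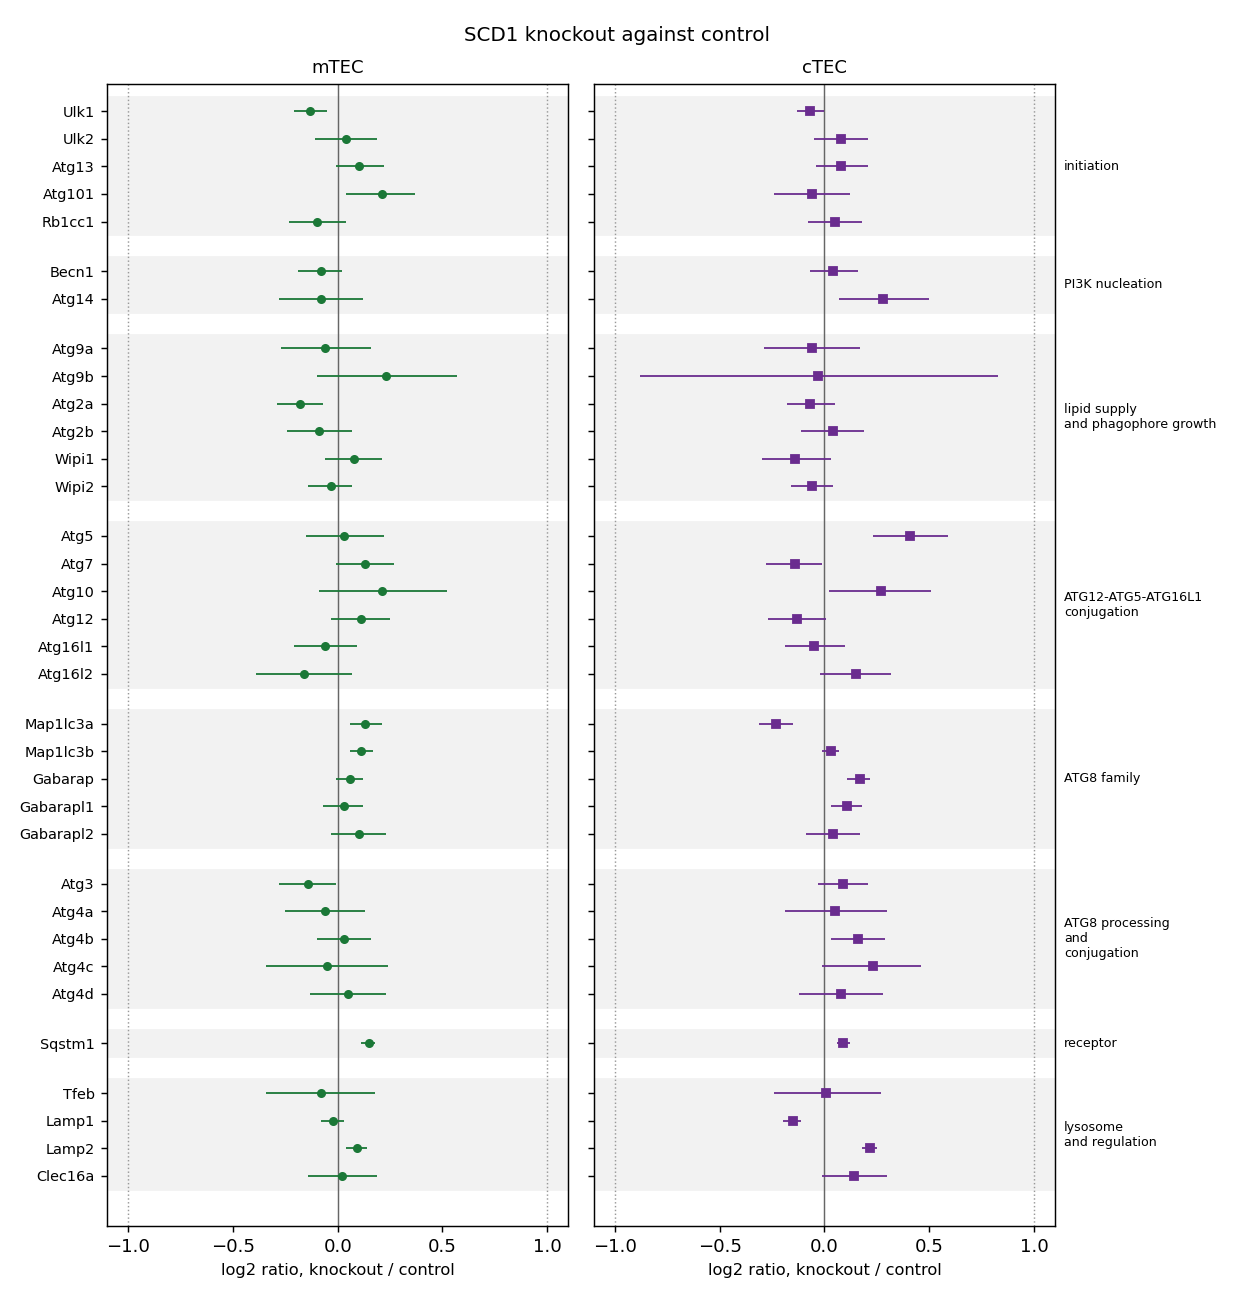
Log2 ratio of knockout to control for each autophagy gene in mTEC (left) and cTEC (right), with bars for the 95% counting interval and dotted lines at 2-fold. Every point lies between the dotted lines, and Atg5 in cTEC, at 0.41, lies farthest from 0.

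The genotype ratios of the 2 populations, which share no library, had the same sign for 19 of the 34 genes (55.9%), against 54.7% of 13953 genes. Sqstm1 and Lamp2 were higher in the knockout library in both populations by the interval, 2 of 34 against 3.36% of all genes, with log2 ratios of 0.15 and 0.09 for Sqstm1 and 0.09 and 0.22 for Lamp2 in mTEC and cTEC. No autophagy gene was lower in both, against 3.13% of all genes. Map1lc3a was higher in knockout mTEC and lower in knockout cTEC. The difference between both ratios, mTEC minus cTEC, had a counting interval that excluded 0 for 14 of the 34 genes (41.2%), 8 with the higher ratio in mTEC and 6 with the lower. The same held for 23.0% of 15829 genes with at least 100 reads over the 4 libraries and for 26.5% of those with at least 800, a depth that 33 of the 34 reached. For 8 of the 34 genes such a difference came with genotype ratios of opposite sign, against 2764 of the 15829 genes (17.5%). Among genes whose difference excluded 0, opposite signs were found for 8 of 14, against 2764 of 3641. The difference was 0.36 (0.25 to 0.47) for Map1lc3a, 0.27 (0.08 to 0.46) for Atg7 and 0.13 (0.06 to 0.2) for Lamp1, and it was -0.38 (-0.63 to -0.12) for Atg5, -0.36 (-0.65 to -0.07) for Atg14 and -0.13 (-0.19 to -0.07) for Lamp2. The spread between libraries of a group is not known here, so these differences have no test.

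Between mTEC and cTEC the set differed more. In the control pair 2 genes passed the size rule, Atg9b as higher and Lamp2 as lower in mTEC, which is 5.88% of the set against 27.5% of 15747 genes. In the knockout pair 3 did, Atg9b as higher and Lamp2 and Atg16l2 as lower in mTEC, which is 8.82% against 28.8% of 15962 genes. The interval excluded equality for 7 genes that were higher and 19 that were lower in mTEC in the control pair, 20.6% and 55.9% of the set, against 34.8% and 39.9% of all genes. With counts scaled by total reads that split was 9 higher and 14 lower, and in the knockout pair 9 higher and 17 lower. The shares of all genes under that scaling were not counted, so these 2 splits have no background. With TMM scaling 7 were higher and 19 lower in the knockout pair, against 34.9% and 41.6% of all genes. Among genes with at least 200 reads, a depth that 33 of the 34 reached, 46.5% were lower in the control pair and 48.8% in the knockout pair. At that depth the size rule was passed by 1 and 2 of the 33, against 19.7% and 20.7% of all genes. In either direction the share was 76.5% of the set in both pairs, against 74.7% and 76.4% of all genes. The median log2 ratio was -0.15 in control and -0.19 in knockout, against -0.06 and -0.08 over all genes. With scaling by total reads these medians were -0.06 and -0.1, against 0.04 and 0.02 over all genes. The median distance from 0 was 0.25 and 0.27 with TMM scaling, against 0.5 and 0.51 over all genes. The 2 pairs share no library and gave the same sign for 28 of the 34 genes (82.4%), against 88.5% of 15509 genes. By the interval 4 were higher in mTEC in both (Atg9b, Wipi1, Atg4a and Atg4d), against 30.3% of all genes, and 16 were lower in both, against 35.3%. At least 1.5-fold differences were found for 8 genes in each pair, or 23.5%, against 43.5% and 44.9% of all genes.

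**Figure D3:**
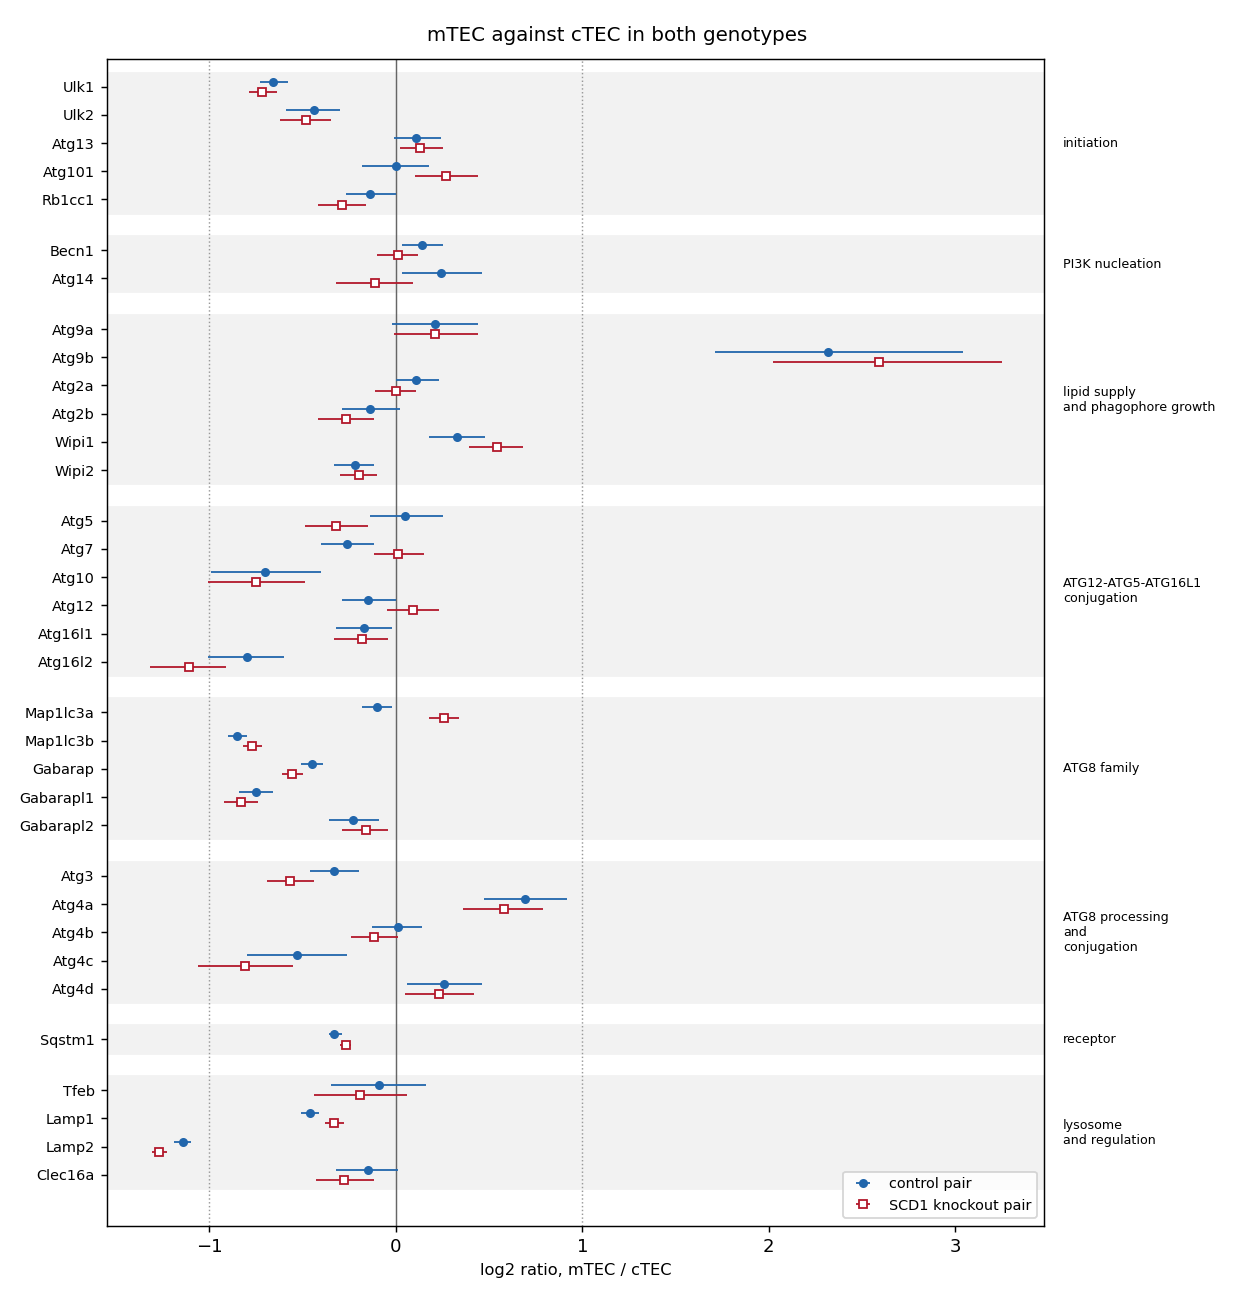
Log2 ratio of mTEC to cTEC for each autophagy gene in the control pair (filled circles) and the SCD1 knockout pair (open squares), with bars for the 95% counting interval and dotted lines at 2-fold. Atg9b lies beyond 2-fold on the mTEC side in both pairs, Lamp2 beyond it on the cTEC side in both, and Atg16l2 in the knockout pair.

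At the start of the pathway both kinases were lower in mTEC in both pairs, and their partners were not all on the same side. Ulk1 was at 145 and 133 CPM in control and knockout mTEC and 229 and 218 in control and knockout cTEC. Both cTEC libraries stood above both mTEC libraries, with log2 ratios of -0.66 (-0.73 to -0.58) in control and -0.72 (-0.79 to -0.64) in knockout. Ulk2, its paralog, had ratios of -0.44 (-0.59 to -0.3) and -0.48 (-0.62 to -0.35). The partner genes Atg13 and Atg101 had ratios of 0.11 and 0 in control, where the intervals held equality, and were higher in mTEC by the interval in knockout, at 0.13 (0.02 to 0.25) and 0.27 (0.1 to 0.44). With scaling by total reads or DESeq2 size factors, Atg13 was higher in mTEC by the interval in control as well. Rb1cc1, the gene of FIP200, was lower in both pairs by the interval, at -0.14 and -0.29, the first of which did not hold with scaling by total reads or DESeq2 size factors. Of the PI3-kinase genes, Becn1 was at 82.6, 77.9, 74.9 and 77.2 CPM in the 4 libraries in the same order, and its ratios were 0.14 (0.03 to 0.25) and 0.01. Atg14 had ratios of 0.24 (0.03 to 0.46) in control and -0.11 (-0.32 to 0.09) in knockout.

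The largest ratio of the set was that of Atg9b, a paralog of the scramblase Atg9a that seeds the phagophore membrane. Atg9b lies at chr5:24384181-24392143 on the minus strand of mm10. It had 136 and 165 reads in control and knockout mTEC and 24 and 27 in control and knockout cTEC, or 7.98, 9.39, 1.57 and 1.54 CPM. Both mTEC libraries stood above both cTEC libraries, 5-fold in control, at a log2 ratio of 2.32 (1.71 to 3.04), and 6.01-fold in knockout, at 2.59 (2.02 to 3.25). Its pair of libraries held 160 reads in control and 192 in knockout, so it would not be measured under a minimum of 200 reads. Per length, Atg9b made up 34.7% and 39.4% of the ATG9 level in control and knockout mTEC and 10.8% and 11% in cTEC. The span of Atg9b shares 294 bases with that of Nos3 on the other strand, and Nos3 had 40, 43, 6 and 2 reads in the 4 libraries in the same order. Without a stated strand setting, reads of the shared bases cannot be told apart. Atg9a, the broadly expressed gene, was at 21.9, 21.1, 19 and 18.2 CPM, and its intervals did not exclude equality with TMM scaling. With total reads it was higher in mTEC by the interval in both pairs. With DESeq2 size factors it was so in the knockout pair. Of the PI3P-binding WIPI proteins, Wipi1 was at 50.8, 53.5, 40.5 and 36.9 CPM, higher in mTEC at 0.33 (0.18 to 0.48) and 0.54 (0.39 to 0.68). Wipi2, which recruits ATG16L1, was lower at -0.22 and -0.2. Atg2a and Atg2b lay between -0.27 and 0.11.

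In the conjugation system for ATG12, 5 of 6 genes were lower in control mTEC by the interval and 4 of 6 in knockout mTEC, against 39.9% and 41.6% of all genes. With scaling by total reads both counts were smaller, without Atg12 and Atg16l1 in control and without Atg16l1 in knockout. Atg16l2 lies at chr7:101263034-101302251 on the minus strand of mm10 and encodes a paralog of ATG16L1, the protein that brings the conjugate to the membrane. It was at 18.8 and 16.8 CPM in control and knockout mTEC and 32.8 and 36.3 in control and knockout cTEC. Both cTEC libraries were higher, by 1.75-fold in control, at a log2 ratio of -0.8 (-1.01 to -0.6), and by 2.16-fold in knockout, at -1.11 (-1.32 to -0.91). Its span overlaps that of Fchsd2 on the other strand over 21372 bases, and Fchsd2 had 496, 494, 388 and 474 reads in the 4 libraries in the same order. Which reads came from the shared bases was not tested. Atg16l1 itself had smaller ratios, also lower in mTEC by the interval, at -0.17 (-0.32 to -0.02) and -0.18 (-0.33 to -0.04), neither of which held with scaling by total reads. Atg10 was at 9.56, 11.1, 15.5 and 18.7 CPM, with ratios of -0.7 (-0.99 to -0.4) and -0.75 (-1.01 to -0.49). Atg5 differed only in the knockout pair by the interval, at 0.05 in control and -0.32 (-0.49 to -0.15) in knockout. Atg7 was at -0.26 in control and 0.01 in knockout, and Atg12 at -0.15 and 0.09. The control interval of Atg12 held equality with scaling by total reads or DESeq2 size factors. With total reads Atg12 was higher in mTEC by the interval in knockout.

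The ATG8 family showed the same direction for 4 of its 5 genes in both pairs. Map1lc3b was at 302 and 326 CPM in control and knockout mTEC and 545 and 557 in control and knockout cTEC. Its cTEC libraries were 1.81-fold and 1.71-fold higher, with log2 ratios of -0.85 (-0.9 to -0.8) in control and -0.77 (-0.82 to -0.72) in knockout. Map1lc3b shares 5.7% of its 50-base windows with the processed copy Gm6055, which had 288, 338, 448 and 402 reads, and with the reads of its copies added the ratios were -0.85 and -0.75. Gabarapl1, a close relative of Gabarap, was at 96.3, 98.1, 162 and 174 CPM, with ratios of -0.75 (-0.84 to -0.66) and -0.83 (-0.92 to -0.74). Gabarap was at 228, 237, 311 and 349 CPM, with ratios of -0.45 and -0.56. Gabarapl2 was at 51.6, 55.3, 60.3 and 61.9 CPM, with ratios of -0.23 and -0.16, and its intervals no longer excluded equality when counts were scaled by total reads. Map1lc3a was the exception. At 146, 161, 157 and 134 CPM, it was lower in mTEC in the control pair, at -0.1 (-0.18 to -0.02), and higher in the knockout pair, at 0.26 (0.18 to 0.34). The control value did not exclude equality with scaling by total reads, whereas the knockout value did.

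As a family the ATG8 genes summed to a per-length level of 1021 and 1057 in control and knockout mTEC and 1375 and 1384 in control and knockout cTEC. Map1lc3a made up 34.6% and 35.7% of that level in control and knockout mTEC, and 27.7% and 23.2% in control and knockout cTEC. Map1lc3b made up 11.2% and 11.4% in mTEC and 15.1% in both cTEC libraries. Gabarap was the largest or joint largest share in control mTEC and in cTEC, with 34.6% in control mTEC and 35.1% and 38.6% in control and knockout cTEC. Knockout and control mTEC thus had nearly the same makeup, and knockout cTEC had less Map1lc3a and more Gabarap than control cTEC. The shares of the genes depend on the length used. The deposited length was 7517 bases for Map1lc3b, 1844 for Gabarap and 1181 for Map1lc3a. By CPM, without length, Map1lc3b was the highest gene of the family in every library.

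**Figure D4:**
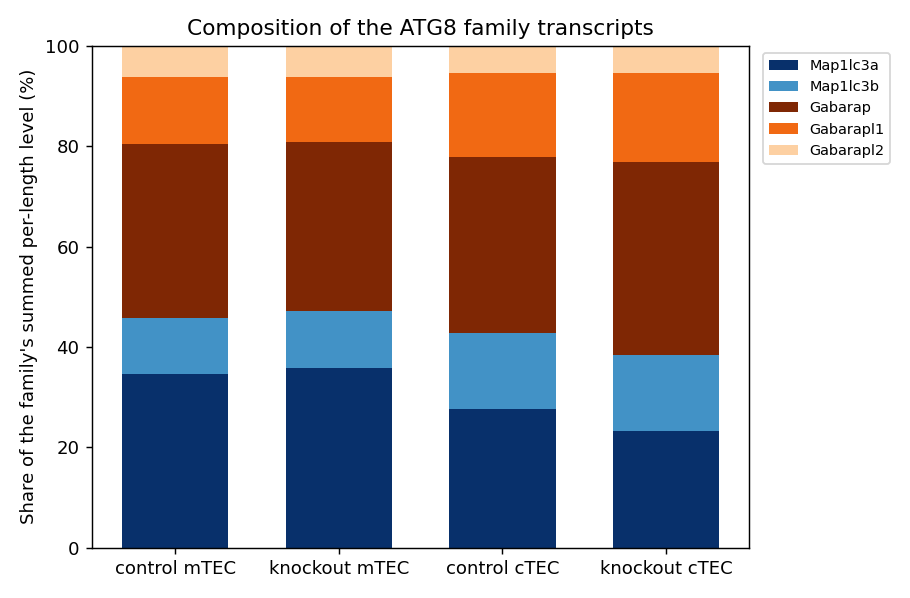
Share of each of the 5 ATG8 genes in the family's summed per-length level (%), 1 stacked bar per library. The Map1lc3a part is largest in knockout mTEC at 35.7% and smallest in knockout cTEC at 23.2%.

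The enzymes that process ATG8 proteins did not move together. Atg4a, a protease that trims GABARAP-type proteins, was at 26.8 and 25.6 CPM in control and knockout mTEC and 16.6 and 17.2 in control and knockout cTEC. Both mTEC libraries stood above both cTEC libraries, with log2 ratios of 0.69 (0.47 to 0.92) and 0.58 (0.36 to 0.79). A pseudogene copy, Atg4a-ps, shares 63.6% of its windows and had 5 to 6 reads per library, and with these added the ratios were 0.67 and 0.56. Atg4c went the other way, at 12, 11.6, 17.3 and 20.3 CPM, with ratios of -0.53 (-0.8 to -0.26) and -0.81 (-1.06 to -0.55). Atg4b, the protease with the broadest activity, was close to equal at 0.01 and -0.12, and Atg4d was higher in mTEC at 0.26 and 0.23. Their summed per-length level was 69.7 and 67.2 in control and knockout mTEC and 61.5 and 66.7 in cTEC. Atg4a held 41.2% and 39.8% of that level in mTEC and 28.9% and 27.4% in cTEC. By CPM, without length, Atg4b was the highest ATG4 gene in every library. Atg3 was at 54.7, 49.5, 68.8 and 73.2 CPM, lower in mTEC at -0.33 (-0.46 to -0.2) and -0.57 (-0.69 to -0.44).

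The cargo receptor and the lysosomal genes were higher in cTEC. Sqstm1 was at 760.3, 842, 953 and 1014 CPM, with log2 ratios of mTEC to cTEC of -0.33 (-0.36 to -0.29) and -0.27 (-0.3 to -0.24). Lamp2 lies at chrX:38401357-38456454 on the minus strand of mm10. It was at 351 CPM (343 to 361) and 373 CPM (364 to 382) in control and knockout mTEC, and at 775 CPM (762 to 790) and 902 CPM (888 to 916) in control and knockout cTEC. Both cTEC libraries were more than 2-fold above their mTEC counterparts, 2.21-fold in control, at -1.14 (-1.19 to -1.1), and 2.42-fold in knockout, at -1.27 (-1.31 to -1.23). Lamp1, the gene with 4 E-boxes in its window, was at 327, 322, 449.7 and 404 CPM, with ratios of -0.46 (-0.51 to -0.41) and -0.33 (-0.38 to -0.28). Per length, Lamp2 therefore made up 23.2% and 24.5% of the LAMP level in control and knockout mTEC, and 32.6% and 38.4% in cTEC. That share rests on the deposited lengths, 9552 bases for Lamp2 and 2675 for Lamp1. By CPM, without length, Lamp2 stood above Lamp1 in all 4 libraries. Tfeb was at 15, 14.2, 16 and 16.2 CPM, and its intervals did not exclude equality in any of the 4 comparisons. Clec16a, a regulator of autophagy that is known from thymic epithelium, was at 34.4, 34.9, 38.3 and 42.4 CPM and lower in mTEC by the interval in the knockout pair, at -0.28.

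Another 70 genes of the pathway, in 6 lists, gave a setting for these values, and 68 of them had enough reads. In both genotype comparisons 0 of the 68 passed the size rule, against 0.935% and 1.20% of all genes, and the medians were 0 in mTEC and 0.02 in cTEC. Between populations 9 were lower and 0 higher in mTEC in the control pair, against 8.53% and 19.0% of all genes. In the knockout pair 9 were lower, against 8.96%, and 1 was higher, against 19.8%. The median log2 ratio over the lists was -0.36 in control and -0.4 in knockout.

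Selective autophagy receptors had medians of -0.5 and -0.61, with 11 and 12 of 14 lower in mTEC by the interval, against 39.9% and 41.6% of all genes (46.5% and 48.8% of those with at least 200 reads). Retreg1, a receptor for the endoplasmic reticulum, was the 1 receptor that was higher in mTEC by the interval, at 0.29 and 0.18. Calcoco1, a receptor for the endoplasmic reticulum and Golgi, was at 85.1 and 83.7 CPM in control and knockout mTEC and 331 and 363 in control and knockout cTEC, with log2 ratios of -1.96 and -2.11. Optn, a receptor for mitochondria and bacteria, was at 8.45, 10.3, 29.6 and 32.3 CPM, with ratios of -1.81 and -1.65. The best known receptors beside p62, Nbr1 and Tax1bp1, had smaller ratios, -0.21 and -0.17 for Nbr1 and -0.43 and -0.46 for Tax1bp1.

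Nutrient sensing kinases and their inputs had medians of -0.31 and -0.29, with 13 of 22 lower in mTEC by the interval in each pair, against 39.9% and 41.6% of all genes, and 3 and 4 higher, against 34.8% and 34.9%. Sesn1, which relays leucine levels to mTORC1, was at 35 and 34.8 CPM in control and knockout mTEC and 129 and 134 in control and knockout cTEC, with log2 ratios of -1.88 and -1.95. Castor1, an arginine sensor, had ratios of -1.83 and -1.66, and Sesn3 of -1.12 and -1.2. The third sestrin gene, Sesn2, went the other way and was higher in mTEC at 0.38 and 0.5, as were Ddit4, an inhibitor of mTORC1 signalling, at 0.53 and 0.63 and the Rag GTPase gene Rragd at 0.46 and 0.34. Rptor was higher by the interval in the knockout pair, at 0.14. Of the catalytic subunits of AMPK, which phosphorylates ULK1, Prkaa2 was at -1.04 and -1.2 and Prkaa1 at 0.04 and -0.27. Mtor, the kinase that holds ULK1 in check, was at -0.37 and -0.32. In the genotype comparison of cTEC, Prkaa1 was at 32.3 CPM in control and 41.6 in knockout, a log2 ratio of 0.36 (0.2 to 0.53), whereas in mTEC it was at 33.2 and 34.6 CPM.

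TFEB relatives and regulators had medians of -0.65 and -0.69, with 8 of 9 lower in mTEC by the interval in each pair, against 39.9% and 41.6% of all genes. The ninth, Fnip2, a partner of folliculin, was higher at 0.75 and 0.45. Mitf, a factor of the same family as Tfeb, was at 5.87 and 5.69 CPM in control and knockout mTEC and 24.1 and 26.9 in control and knockout cTEC, which gives log2 ratios of -2.04 (-2.37 to -1.72) in control and -2.23 (-2.57 to -1.92) in knockout. Foxo1 had ratios of -1.2 and -1.23. Tfe3 was closer to equal, at -0.19 and -0.27, as was Mcoln1, a calcium channel of the lysosome, at -0.31 and -0.44. Mitf and Foxo1 thus stood in cTEC well above mTEC, while Tfeb itself was nearly level.

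The 14 genes of fusion with the lysosome had medians of -0.34 and -0.37. Tecpr1, a tethering factor, was at 43.5, 49.1, 100.2 and 107 CPM, with ratios of -1.2 and -1.12, and the SNARE gene Stx17 was at -0.71 and -0.77. Partners of the PI3-kinase complex had medians of -0.25 and -0.21. Pik3c3, the catalytic subunit, was at -0.26 and -0.14, Uvrag at -0.24 and -0.44, and Rubcn, an inhibitor, at -0.36 and -0.43. Nrbf2, which activates the complex, was at 25.2, 24.9, 13 and 10.7 CPM, higher in mTEC at 0.96 (0.72 to 1.21) and 1.21 (0.97 to 1.47). It was the list gene that passed the size rule as higher in mTEC, in the knockout pair. The 3 scaffold genes of the endoplasmic reticulum had medians of -0.02 and 0.02. Among them Vmp1 was at 93, 94, 94.3 and 81 CPM, so that knockout cTEC stood below the other 3 libraries, at a log2 ratio of -0.22 (-0.33 to -0.11) to its control. Tmem41b was lower in mTEC, at -0.81 (-0.98 to -0.65) and -0.61 (-0.77 to -0.46), whereas Vmp1 was higher in the knockout pair, at 0.21 (0.11 to 0.32).

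**Figure D5:**
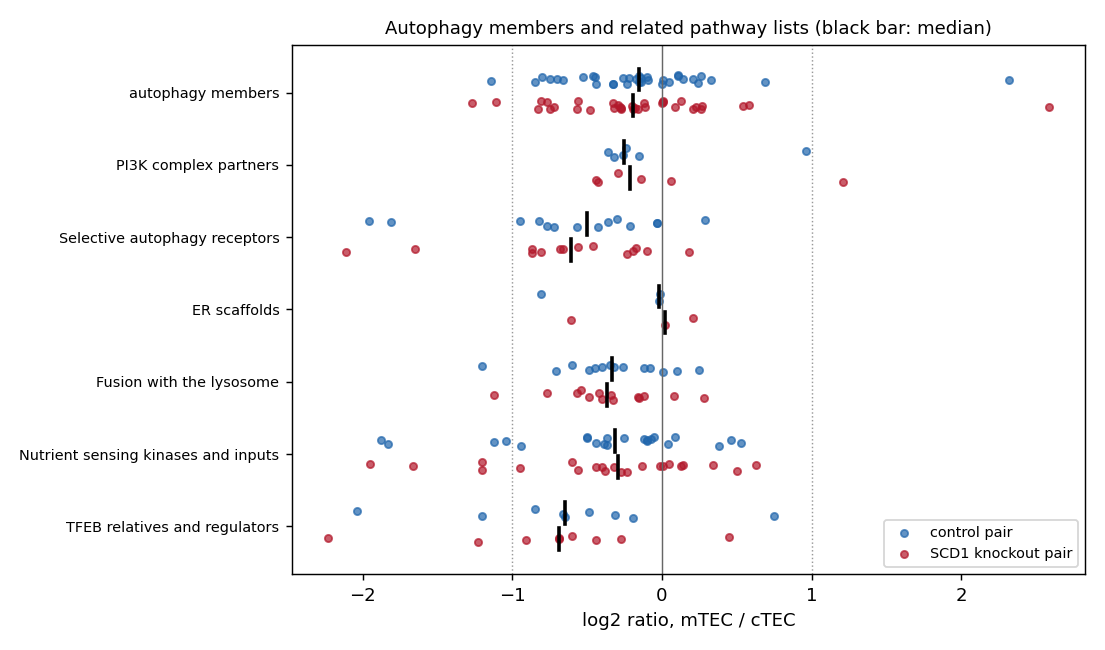
Log2 ratio of mTEC to cTEC for the autophagy genes and for 6 lists of related genes, 1 point per gene, in the control pair (blue) and the SCD1 knockout pair (red), with a black bar at each median and dotted lines at 2-fold. The medians of the receptor list and of the list of TFEB relatives lie between -0.5 and -0.69, below the -0.15 and -0.19 of the autophagy genes.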

How the data were processed

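Raw read counts of every gene in 4 libraries were deposited, with symbols, mm10 positions and a length of the gene in bases (another, other unit, per the file headers). Per the submitters' processing notes, CASAVA, HISAT2 2.0.5 and featureCounts 1.5.0-p3 were used with mm10. The sources used here do not say how reads with several positions or on either strand were counted, or with which annotation.

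Counts were scaled over all genes by TMM in edgeR 4.0.16 (R 4.3.3). CPM have Poisson 95% intervals. Log2 ratios use a prior of 0.5 reads and exact conditional binomial (Clopper-Pearson) 95% intervals. Reads are not independent molecules, so intervals cover counting error only. The difference of 2 ratios has an interval from the counting variance of the 4 libraries. No p-value was computed. Motifs, copies sharing at least 100 50-base windows, and overlaps were found by exact search against RefSeq windows and GENCODE release 21. Calculations were run on simulated Poisson counts with planted 4-fold changes. Such counts hold only the counting error that the intervals assume, so they cannot check spread between libraries.

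The 34 genes and all lists were chosen with earlier results of these data known. Named are all genes past the size rule and, per comparison, the 3 higher and 3 lower genes with the interval bound farthest from 0. From the lists, named are 12 genes chosen by role and all past the rule. Further values, among them those of Atg10, Atg14, Retreg1, Sesn2, Ddit4, Rragd, Rptor, Fnip2, Tmem41b, Ccl21a and Tek, were picked after they were seen. Alternatives covered scaling (total reads, DESeq2 1.42.0 size factors), the minimum of reads, the fold, the prior count and per-length against CPM levels.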

Additional observations from a re-analysis of the deposited data

Results flagged for a closer look

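Of the 34 autophagy genes, 8 had genotype ratios of opposite sign in mTEC and cTEC and a counting interval of the difference that excluded 0. The same held for 17.5% of 15829 genes. The difference of the log2 ratios, mTEC minus cTEC, was 0.36 for Map1lc3a, 0.27 for Atg7, 0.26 for Atg101, 0.23 for Atg12 and 0.21 for Wipi1. It was -0.36 for Atg14, -0.31 for Atg16l2 and -0.24 for Atg3. Only for Map1lc3a did both ratios also have intervals that excluded equality, at 0.13 in mTEC and -0.23 in cTEC. With 1 library per group these differences between populations were not tested.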

How the results depend on the processing

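Of 42 alternatives to the counts, medians and levels, 38 kept their direction and stayed within 1.5 times for a count, or within the median half-width of the genes' counting intervals for a median. With a minimum of 200 reads, 1 gene passed the rule between mTEC and cTEC in control instead of 2. In knockout 2 passed instead of 3. Both changes came from Atg9b, which has fewer reads and whose ratios stayed at 2.32 and 2.59. Of all genes with that minimum, 19.7% passed in control and 20.7% in knockout. With a fold of at least 1.5, 8 genes passed in control instead of 2, and 8 in knockout instead of 3, since the fold was lower, against 43.5% and 44.9% of all genes. The 4 highest genes held 61.7% of the summed per-length level in control mTEC. The 4 highest by CPM held 50.9% of the summed CPM of the 34. These were not the same genes, with Lamp2 and Map1lc3b by CPM in place of Map1lc3a and Gabarap. Scaling by total reads moved the median over all genes by 0.09 between populations, to 0.04 in control and 0.02 in knockout, and that of the set from -0.15 to -0.06 and from -0.19 to -0.1, while no gene of the set changed sign under either other scaling. Adding the reads of near-identical copies, chosen after seeing the data, left 16 of 16 ratios within their intervals. No paired analysis was possible because the groups share fewer than 2 replicate numbers, each having 1 library. An additive model of genotype and population would leave 1 residual degree of freedom, the difference of the genotype ratios between populations, and was not used. Leaving out 1 library removes the 2 comparisons that hold it and leaves 2. At this depth the interval of Atg9b between the genotypes in cTEC ran from -0.88 to 0.83, so that a difference below that size was not detectable.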
